A study of Rattus norvegicus with 18 samples.

Results

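Most CpGs that lie close together in the striatum were unmethylated, and those described here were the exception. They were chosen by 2 criteria, a local density of 5 or more other CpGs within 100 bp and a mean methylation over 80% in the 6 untreated striata. The starting set held the 292497 CpGs of chromosomes 1 to 20 that were covered by at least 10 reads in all 18 striata, with both strands of a CpG merged. Only CpGs of this set were counted as neighbours, so a density given here depends on coverage as well as on the sequence. CpGs called sparse, with fewer than 5 such neighbours, can thus lie in CpG-rich DNA. Of these, 56822 were dense, and 5845 of the dense CpGs were highly methylated, which was 10.3% of the dense CpGs and 2.00% of the set. Another 47593 dense CpGs (83.8%) had a mean under 20%, and 3384 (5.96%) lay in between. Since the untreated levels chose these CpGs, every value set against untreated rats is given as a description.

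Reduced representation bisulfite sequencing (RRBS) was made from the control and the lesioned striatum of 9 juvenile male Wistar rats, 3 in each of 3 groups. All rats received a unilateral injection of 6-hydroxydopamine (6-OHDA), a toxin that kills dopaminergic neurons, into the medial forebrain bundle on postnatal day 21, and the control striatum is the opposite side of the same brain. From postnatal day 35 to 49 and a last time on day 53, the untreated group (UNT) was given saline, the second group L-DOPA, the precursor of dopamine, together with benserazide (L-DOPA), and the third group L-DOPA with benserazide and in addition Riluzole, a blocker of sodium channels and glutamate release (L-DOPA + R). The comparisons hold no rats without a lesion and none given Riluzole alone, and the control striata had received the drugs as well. Riluzole was dissolved in Tween, which the methods do not name for the other groups, so Riluzole and its vehicle cannot be told apart. The labelled tissue could not be checked against marker genes in methylation data, and in bulk tissue a lower level per cell and a smaller share of methylated cells cannot be told apart.

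RRBS reads the ends of MspI fragments and so favours CpG-rich DNA. Dense clusters of CpGs, the CpG islands, cover the promoters of many genes and are as a rule kept free of methylation, while isolated CpGs of the mammalian genome are mostly methylated. Dense CpGs that carry methylation are known from imprinted genes, from the inactive X chromosome, from germline genes that are silenced in somatic tissue, from gene bodies and from young repeats, and methylated cytosines are lost over generations by deamination to thymine, which thins out CpGs. No annotation of rn6, the genome build of the files, was used here. The place of a CpG in a gene is thus given only where the study's supplementary annotation, which covers sites that the study itself called, states it. The gene-start windows described next are an exception, matched to a newer build by spacing alone.

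The DNA around 4 groups of these CpGs could be shown by their spacing alone. In the RefSeq promoter windows of the newer build GRCr8, which span 300 bases at each gene start, the CGs were compared with the CpGs of the files. A window was accepted where at least 10 CpGs and every CpG of the files inside it fell on a CG, a limit chosen after seeing the data. Of 33469 windows, 41.5% hold 10 or more CGs. Among 1189 groups of highly methylated dense CpGs lying more than 300 bp apart, 9 had such a match, 7 of them to a window of the same chromosome and 6 also in the orientation of the gene. The windows of LOC120095030 and Tmprss12 held 1 of the chosen CpGs each. The other 4 windows are printed here for the 250 bases before the listed gene start, 5′ to 3′ on the strand of the gene. The CGs of the highly methylated dense CpGs are in capitals, to show how closely methylated CpGs can follow each other. Whether these windows act as promoters or lie within exons of a transcript was not tested. The window of Fgd3, which encodes an exchange factor for the GTPase Cdc42, is chr17:15542984-15543233 on the plus strand of GRCr8. That of C10h17orf99, which encodes a secreted protein, is chr10:103520992-103521241 on the plus strand. That of Rpl39l1, a gene related to the ribosomal protein L39, is chr10:5966622-5966871 on the minus strand, and that of LOC134483877 is chr20:8745170-8745419 on the plus strand.
Fgd3: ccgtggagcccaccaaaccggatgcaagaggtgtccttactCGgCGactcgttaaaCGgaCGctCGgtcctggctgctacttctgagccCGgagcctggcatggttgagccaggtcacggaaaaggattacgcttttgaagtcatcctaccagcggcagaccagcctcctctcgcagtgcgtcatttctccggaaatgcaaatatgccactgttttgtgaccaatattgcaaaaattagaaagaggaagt
C10h17orf99: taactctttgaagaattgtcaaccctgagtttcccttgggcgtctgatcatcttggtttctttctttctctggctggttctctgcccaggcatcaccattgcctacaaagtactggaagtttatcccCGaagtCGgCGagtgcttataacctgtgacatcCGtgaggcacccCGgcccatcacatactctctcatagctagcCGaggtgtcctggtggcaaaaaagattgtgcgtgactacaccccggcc
Rpl39l1: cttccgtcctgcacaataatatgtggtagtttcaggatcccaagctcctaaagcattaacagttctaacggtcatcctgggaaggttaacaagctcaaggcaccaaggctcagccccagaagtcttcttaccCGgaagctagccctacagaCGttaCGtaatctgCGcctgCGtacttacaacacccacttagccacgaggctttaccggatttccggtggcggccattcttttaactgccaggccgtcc
LOC134483877: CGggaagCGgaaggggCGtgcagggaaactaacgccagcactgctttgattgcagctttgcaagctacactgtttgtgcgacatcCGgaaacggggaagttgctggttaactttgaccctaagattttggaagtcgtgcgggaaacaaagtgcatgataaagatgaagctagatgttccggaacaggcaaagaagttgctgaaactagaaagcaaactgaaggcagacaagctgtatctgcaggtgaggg

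In the Fgd3 window, 15 CpGs of the files fell on its 16 CGs, and 12 of them were covered in all 18 striata, 6 highly methylated and 6 in between. These 6 highly methylated CpGs lie in the first 100 bases as printed and had the lowest mean level of the 4 windows. Their mean per striatum ran from 74.9% over a median of 81.5% to 88.1% in UNT, from 68.4% over 79.3% to 81.4% in L-DOPA, and from 65.5% over 72.3% to 83.4% in L-DOPA + R, so that the groups overlapped. The 6 CpGs of the C10h17orf99 window were all highly methylated, with 91.6% to 98.8% in UNT, 93.7% to 98.7% with L-DOPA and 91.5% to 97.1% with L-DOPA + R. The Rpl39l1 window had 5 highly methylated CpGs and 2 in between. Its highly methylated CpGs had 91.8% to 96.5% in UNT, 86.7% to 96.7% with L-DOPA and 87.9% to 96.4% with L-DOPA + R. The 4 highly methylated CpGs of the LOC134483877 window, beside 3 in between, had 85.3% to 91.6%, 75.8% to 90.6% and 73.2% to 89.6% in the same order. In none of the 4 windows was a CpG of the set under 20%, and no test was run on them.

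Methylation of a CpG was less often high the more CpGs of the set surrounded it. Of the 49378 CpGs without another CpG of the set within 100 bp, 54.1% were over 80% in UNT, and of those with 1 neighbour 50.1%. The share was 34.7% with 3 neighbours, 17.8% with 5 and 11.1% with 6. It fell to 6.30% with 7 to 8, to 4.02% with 9 to 11 and to 2.44% with 12 or more neighbours, which left 89 highly methylated CpGs in the densest class. The chosen CpGs had a median of 5 and at most 18 neighbours, against a median of 7 for dense CpGs under 20%. These shares are a description of the UNT striata, since both measures belong to the rule.

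**Figure D1:**
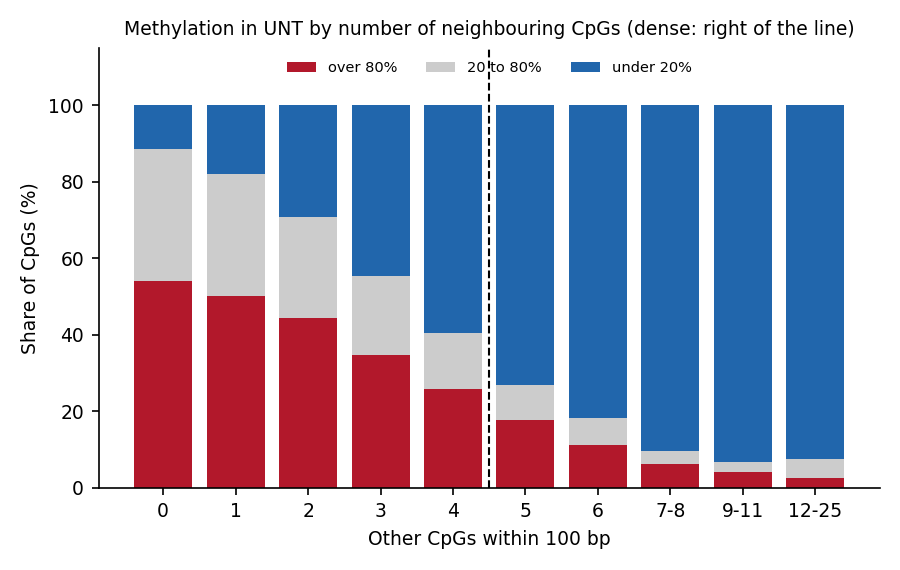
Share of the 292497 CpGs over 80%, from 20 to 80% and under 20% in the mean of the 6 UNT striata (y axis, %) by the number of other CpGs of this set within 100 bp (x axis). The share over 80% falls from 54.1% without a neighbour to 2.44% with 12 or more, and the CpGs described here are the red parts right of the dashed line.

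Among the highly methylated CpGs, a dense surrounding went with a higher level. The mean in UNT was 91.2% for highly methylated CpGs without a neighbour, 93.4% with 5 neighbours and 94.2% with 7 to 11, and 93.0% with 12 or more. In the treated rats, whose levels were not used for the choice, the means were 89.8%, 92.4%, 93.1% with 7 to 8 and with 9 to 11, and 92.6%. Up to the densest class, the level of these CpGs thus rose with density while the share of highly methylated CpGs fell. The order in treated rats largely repeats that in UNT, whose levels chose the CpGs, so it is a description and no separate support.

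The spacing of the chosen CpGs also differed from that of unmethylated dense CpGs. Of 4472 neighbouring pairs of chosen CpGs, 279 (6.24%) were 2 bp apart, that is in the sequence CGCG, and the median gap was 10 bp. Of 40945 pairs of dense CpGs under 20%, 4924 (12%) were 2 bp apart, and the median gap was 8 bp. In dense CpGs from 20 to 80%, 6.88% of 2121 pairs were 2 bp apart, near the share of the chosen CpGs. CpGs of 1 stretch are not independent, and no test was made.

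All 20 chromosomes held chosen CpGs, from 177 on chromosome 19 to 582 on chromosome 1. Relative to the dense CpGs of a chromosome, they were most frequent on chromosome 20, with 300 of 1735 (17.3%), followed by chromosome 18 with 15.7% and chromosome 13 with 15%. The lowest shares were 7.23% on chromosome 10, with 335 of 4634, and 7.40% on chromosome 8. Their mean level in the treated rats lay between 90.9% on chromosome 3 and 94.1% on chromosome 11.

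Chaining CpGs of the set with gaps of at most 100 bp gave 7910 stretches with a dense CpG, and 1196 of them held a chosen CpG. The median was 5 chosen CpGs per stretch, the most were 19, and 153 stretches had 1. In 725 stretches (60.6%), every CpG of the set was over 80% in UNT, and these held 4076 of the chosen CpGs (69.7%). A further 424 stretches (35.5%) also held a CpG from 20 to 80% but none under 20%. Only 47 stretches (3.93%) held a CpG under 20%, with 196 of the chosen CpGs (3.35%). High methylation of dense CpGs was thus mostly shared by all CpGs of the set in a stretch. All 1196 stretches with a chosen CpG had a median length of 109 bp, which depends on the CpGs covered.

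Where a chosen CpG did lie next to a CpG under 20%, the step was steep. There were 61 such pairs with 36 different CpGs under 20%, 28 with a gap of 10 bp or less and 5 with a gap of 2 bp. In the treated rats, the mean was 92.7% at the chosen CpGs and 6.86% at their neighbours, an order that the choice by UNT levels largely fixes. In 18 pairs, which hold 11 different neighbours, the neighbour was at 0 in all 18 striata. At 2 bp on chromosome 14, for instance, the chosen CpG at 78164552 had 91.9% to 100% in UNT, 91.7% to 100% with L-DOPA and 87.5% to 100% with L-DOPA + R. Its neighbour at 78164550 was at 0 in the median of each group, with a highest value of 12.9% in UNT. At 169151991 of chromosome 1, also 2 bp from its neighbour, the chosen CpG had 76.5% to 97.6% in UNT, 81.5% to 91.9% with L-DOPA and 68.8% to 94.4% with L-DOPA + R. Its neighbour at 169151989 had a median of 0 in UNT and L-DOPA, with a highest value of 44.4% and 80%, and 33.3% to 53.8% in L-DOPA + R. Both pairs were named after their values were seen, and the DNA sequence of these rats was not analysed here.

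The 5 stretches with the most chosen CpGs were highly methylated in UNT at every CpG of the set, which at the chosen CpGs follows from the rule. Of their chosen CpGs, 7, 2, 3, 4 and 2 lay 46 to 50 bases past another cytosine of the same strand, a position described below. The first, chr1:101002169-101002371 of rn6, held 19 chosen CpGs among 21. Their mean per striatum ran from 95.9% over a median of 96.5% to 97.8% in UNT, from 96.2% over 97.5% to 98.4% with L-DOPA and from 93.2% over 95.8% to 97.0% with L-DOPA + R. The second, chr18:291990-292235, was made of 17 chosen CpGs alone and was the most variable. It had 84.9% over 92.0% to 94.1% in UNT, 85.4% over 91.2% to 96.0% with L-DOPA and 80.7% over 86.0% to 91.7% with L-DOPA + R, with group means of 90.3 ± 3.82%, 91.0 ± 4.44% and 86.5 ± 4.06% (SD, n = 6 striata of 3 rats). Its groups overlapped widely.

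The third stretch, chr1:15591130-15591563, held 15 chosen CpGs among 16, with means of 97.0 ± 0.469%, 96.5 ± 0.690% and 96.1 ± 1.15% in UNT, L-DOPA and L-DOPA + R. The fourth, chr5:172028584-172028721, packed 15 CpGs into 138 bp, all of them chosen, and had 97.5 ± 0.683%, 97.5 ± 0.408% and 96.1 ± 0.908%. The fifth, chr6:111260832-111261021, had 15 chosen CpGs and 95.2 ± 0.601%, 94.0 ± 2.42% and 95.3 ± 1.64%. In these 5 stretches, the lowest chosen CpG had a mean of 79.8% over the 12 treated striata, in the second stretch. The median reads per CpG and striatum lay between 44 and 109 in UNT and between 24 and 59.5 in the treated groups, so that a single CpG of a single treated striatum moves by several points through counting alone.

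**Figure D2:**
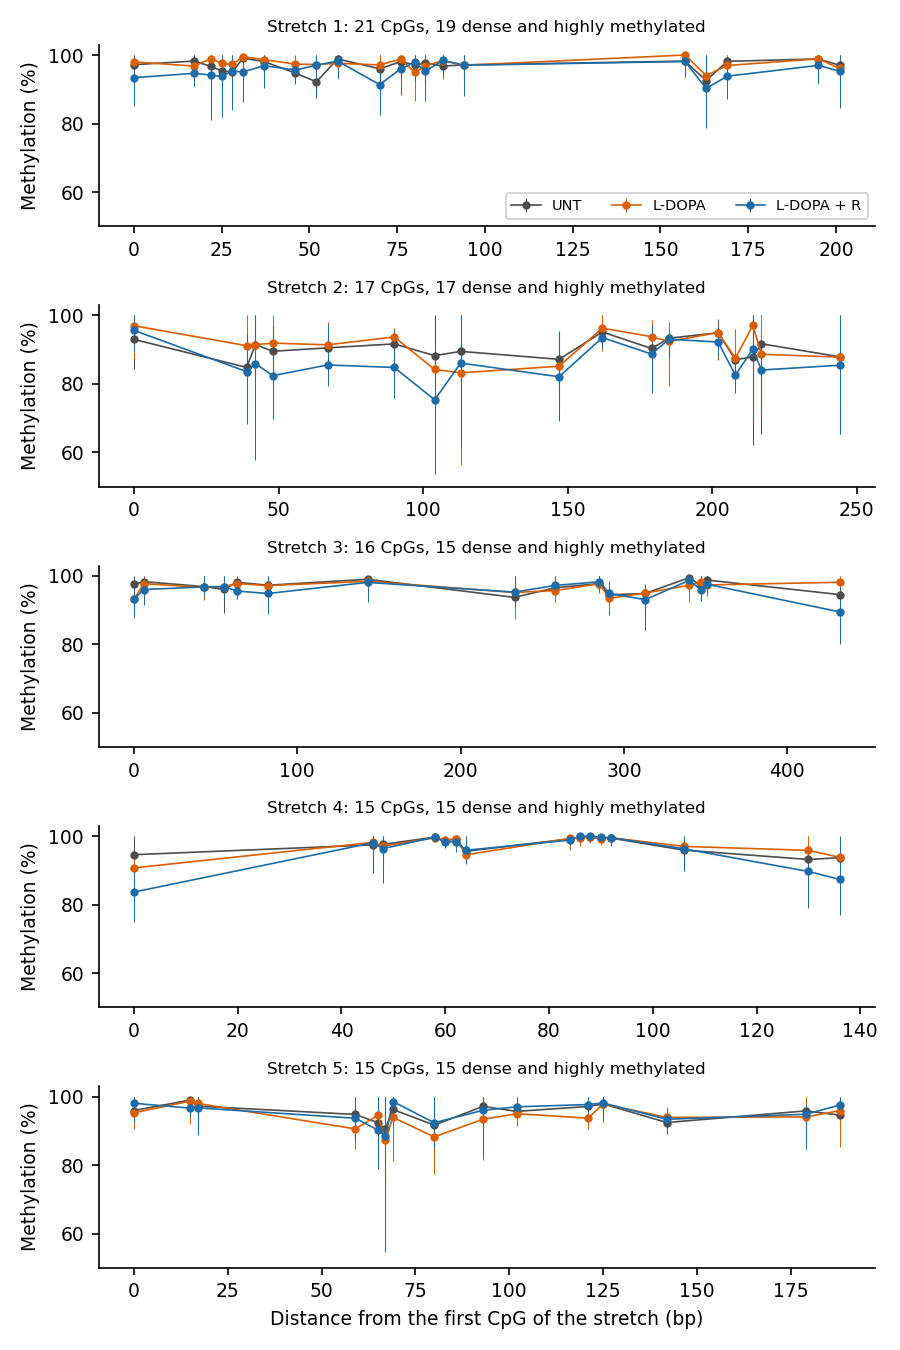
Methylation of each CpG (y axis, %, starting at 50) by its distance from the first CpG (x axis, bp) in the 5 stretches with the most dense, highly methylated CpGs. Points are means of 6 striata and thin bars span the lowest and the highest striatum; the 3 groups run together over each stretch, and the second stretch, with an L-DOPA + R mean of 86.5%, is the most variable.

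Across all 5845 CpGs, the level was near the top of the scale and differed little between striata. The UNT mean per striatum ran from 93.5% over 93.6% to 93.8%, and the median CpG had 95.1%. In L-DOPA the means ran from 92.3% over 92.8% to 93.1%, and in L-DOPA + R from 92.2% over 92.4% to 92.8%. Over rats, the means were 93.6 ± 0.0575%, 92.8 ± 0.224% and 92.5 ± 0.145% (SD, n = 3 rats each). UNT striata lay above all treated striata, a difference that the choice by UNT levels takes part in and from which nothing is read. The median coverage of the CpGs was 44 to 69 reads per striatum in UNT, 25 to 42 with L-DOPA and 27 to 37 with L-DOPA + R.

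Within the treated rats, the comparison of L-DOPA + R with L-DOPA was independent of the rule. L-DOPA + R was lower by 0.337 points in the mean of 3 rats against 3. An exact two-sided permutation test over rats gave p = 0.2, where 0.1 is the smallest p this design allows, so that no difference could be shown at a threshold of 0.05. The median CpG differed by -0.20 points between the groups.

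The lesioned and the control striatum of a treated rat were also set against each other. The difference over the chosen CpGs, lesioned minus control, was 0.179, -0.352 and 0.556 points in the 3 L-DOPA rats and 0.615, -0.232 and -0.168 points in the 3 L-DOPA + R rats. It was positive in 3 and negative in 3 rats, with a mean of 0.0996 ± 0.416 points (SD, n = 6 rats) and an exact sign-flip permutation p of 0.562. In UNT rats, it was -0.345, -0.209 and 0.211 points. No side was thus consistently higher.

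The sparse CpGs over the same limit of 80% in UNT served for comparison, although the 2 classes were not matched in their level. The 105018 sparse CpGs over 80% in UNT had a mean of 90.6 ± 0.449% in the treated rats, and the chosen dense CpGs 92.6 ± 0.250% (SD, n = 6 rats). Dense CpGs were higher in 6 of 6 treated rats, by 1.71 to 2.28 points, with a mean of 2.01 ± 0.227 points. The exact sign-flip permutation test gave p = 0.031, the smallest p that 6 rats allow, and 0.0781 after adjustment over the 5 tests on rats, so that it missed a threshold of 0.05 once adjusted. In the UNT rats, whose levels chose both classes, the dense CpGs were already higher by 1.62 to 1.84 points, so that the test in treated rats is in large part a repeat of a gap between the chosen classes. The median CpG had 94.8% in dense and 92.3% in sparse DNA over the treated striata.

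**Figure D3:**
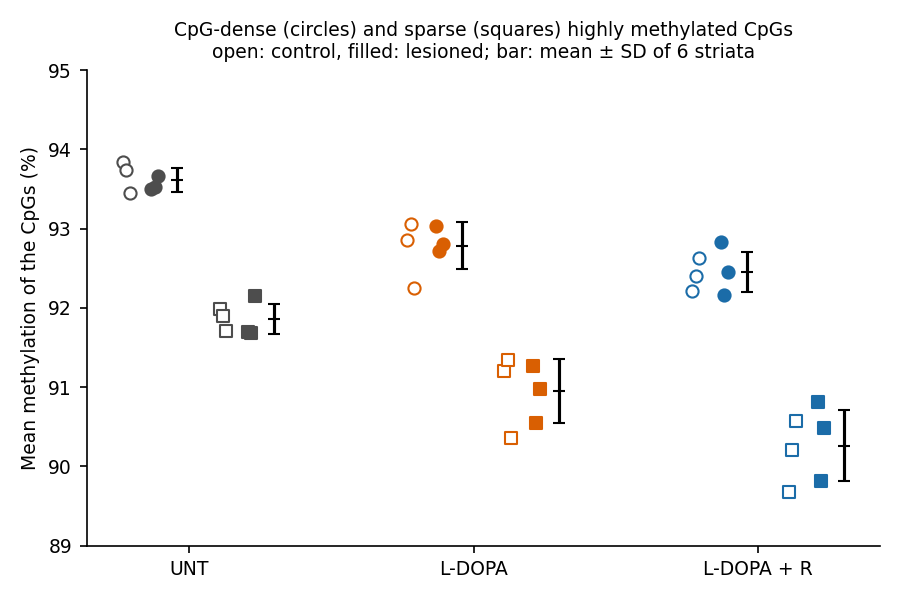
Mean methylation (y axis, %, from 89 to 95) of the 5845 dense and the 105018 sparse CpGs over 80% in UNT, in each of the 18 striata by treatment (x axis). The dense CpGs sit at 93.5 to 93.8% in UNT, 92.3 to 93.1% with L-DOPA and 92.2 to 92.8% with L-DOPA + R, above the sparse CpGs of every group, and control and lesioned striata overlap.

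The difference between neighbouring CpGs was then compared between dense and sparse DNA. In the treated rats, neighbouring chosen CpGs at most 100 bp apart differed by 5.15 ± 0.255 points on average, and neighbouring sparse CpGs over 80% by 6.02 ± 0.385 points (SD, n = 6 rats). The difference was smaller in dense DNA in 6 of 6 rats, with a mean of -0.867 ± 0.187 points, dense minus sparse, and an exact sign-flip permutation p of 0.031, or 0.0781 after adjustment over the 5 tests, which missed a threshold of 0.05. In the UNT rats, whose levels chose both classes, the differences were already smaller in dense DNA, with 3.87, 4.11 and 3.93 points against 4.62, 4.95 and 4.71 points. The dense CpGs were also closer to the upper end of the scale, with the mean of 92.6% against 90.6% given above. They were read more deeply too, with median reads of 52, 32.5 and 29.5 in UNT, L-DOPA and L-DOPA + R against 46, 30.5 and 25 in sparse CpGs. The part of level and depth in the smaller differences was not tested. Neighbours in dense DNA were also closer to each other. At gaps of up to 10 bp, the chosen CpGs differed by 4.83 points and the sparse by 5.26, and at gaps of 51 to 100 bp by 6.46 and 6.92 points, so the difference grew with distance in both classes and was smaller in dense DNA at either distance.

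The spread between the rats of a treatment was small. The median SD of 3 rats at a chosen CpG was 2.09 points in UNT, 2.41 with L-DOPA and 2.72 with L-DOPA + R, while sparse CpGs over 80% had 2.54, 2.96 and 3.58 points. Large ranges did not follow this order in each group, since the 3 rats spanned more than 30 points at 0.103%, 0.257% and 0.359% of the dense and at 0.0686%, 0.249% and 0.531% of the sparse CpGs. The dense CpGs also lie closer to 100% and were read more deeply, as given above. Of the chosen CpGs, 3930 (67.2%) stayed over 80% in all 12 treated striata, and 2 had 100% in all 18 striata. Over the 12 treated striata, 295 of the chosen CpGs (5.05%) had a mean under 80% and 20 (0.342%) under 50%. Of the sparse CpGs, 7.02% were under 80% and 0.258% under 50%. Just inside the threshold, the 85 dense CpGs with 80 to 81% in UNT had 77.5% with L-DOPA and 76.7% with L-DOPA + R. Just outside, the 86 dense CpGs with 79 to 80% in UNT had 78.0% and 77.2%, so the limit of 80% splits CpGs of like level in treated rats.

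Low levels in single treated rats were counted with a limit of 60% in the mean of both striata. Between 0.582% and 0.736% of the chosen CpGs, 34 to 43 in number, were under 60% in a treated rat, and between 0.470% and 0.810% of the sparse CpGs. The dense share was higher in 4 of 6 rats, with a mean difference of 0.0613 ± 0.0965 percentage points (SD, n = 6 rats, exact sign-flip permutation p = 0.219). The direction turned without the cytosines at 50 bases (-0.0468 percentage points) or at 46 to 50 bases (-0.0473), and with a minimum of 20 reads the difference was 0.432 percentage points (exact p = 0.031), so no direction is given. The 3 UNT rats had 1, 2 and 2 chosen CpGs under 60%, whose levels took part in the choice. The CpGs behind these counts fell into separate kinds, described next.

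The first kind lay at a fixed distance from another cytosine. Reads were single-ended and 50 bases long, so each cytosine was marked by whether another cytosine of the same strand was listed 50 bases before it. This held on at least 1 strand for 178 of the chosen CpGs (3.05%), and 759 others (13%) lay 46 to 49 bases past a cytosine. All 19 CpGs under 60% in all 6 treated rats were among the 178. Of the 20 CpGs under 50% over the treated striata, 20 were too, and the lowest of the 5667 other CpGs had 52.2%.

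Over the 178 CpGs, the mean was 93.9 ± 0.136% in UNT, 81.1 ± 0.233% with L-DOPA and 81.2 ± 0.459% with L-DOPA + R (SD, n = 3 rats). Each of the 6 treated rats lay between 80.7% and 81.6%. At 46 to 49 bases, the means were 93.6 ± 0.115%, 93.2 ± 0.292% and 92.8 ± 0.324%, and at all other chosen CpGs 93.6 ± 0.0588%, 93.2 ± 0.222% and 92.8 ± 0.135%. The lower level was thus seen at 50 bases and not at 46 to 49. It was not uniform, since 120 of the 178 CpGs stayed over 80% in the treated striata and the lowest had 14%. In sparse DNA, the 1283 highly methylated CpGs at this distance had 91.8% in UNT, 72.8% with L-DOPA and 72.6% with L-DOPA + R, and at dense CpGs under 20% the same distance had 1.85%, 1.70% and 1.68%.

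The single strands showed the same step. At 49 bases, the cytosines of the chosen CpGs had 93.4% in UNT, 92.5% with L-DOPA and 92.5% with L-DOPA + R. At 50 bases, where 70 cytosines were listed in all 18 striata, they had 94.3 ± 0.305%, 79.4 ± 0.240% and 79.8 ± 0.0793% (SD, n = 3 rats). At 51 bases they were back at 93.7%, 92.5% and 92.2%.

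**Figure D4:**
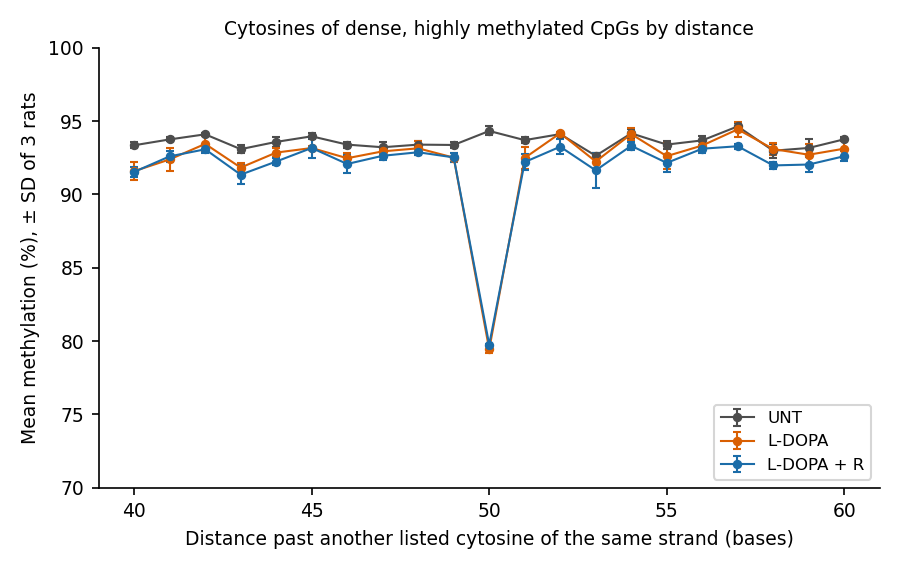
Mean methylation (y axis, %, from 70 to 100) of the cytosines of dense, highly methylated CpGs by their distance past another listed cytosine of the same strand (x axis, bases). Points are means and bars SD of 3 rats; L-DOPA and L-DOPA + R drop to 79.4% and 79.8% at 50 bases alone, where UNT has 94.3%.

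In 20 chosen CpGs, 1 strand lay 50 bases past a cytosine, the other strand lay at none of the distances of 46 to 50 bases, and both were listed in all 18 striata. The strand at 50 bases had 96.3% in UNT, 66.6% with L-DOPA and 65.7% with L-DOPA + R, and the other strand of the same CpGs had 96.5%, 95.8% and 95.1%. In the treated striata, the strand at 50 bases was lower at 15 of 20 CpGs, and by more than 20 points at 12. At 7649305 of chromosome 20, in Tcp11, it had 97.3%, 36.8% and 42.8%, and the other strand 98.9%, 97.6% and 100%. In Pard6b, at 164840857 of chromosome 3, it had 96.6%, 42.2% and 44.0%, and the other strand 97.0%, 97.4% and 97.1%. A CpG is palindromic and as a rule methylated on both strands, and the strand means lay close together in UNT and apart in the treated groups. The part of the position in the reads in the results below was not tested beyond these values.

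The treatments were then compared at each CpG, over all CpGs tested. Between L-DOPA and UNT, 58 of the 5845 chosen CpGs (0.992%) were differentially methylated sites (DMS, q under 0.01 of a logistic model with chi-square test), 57 hypomethylated and 1 hypermethylated in L-DOPA. Of all 654563 CpGs tested, 0.351% were DMS, and 0.269% were hypomethylated DMS. Between L-DOPA + R and UNT, 66 (1.13%) were DMS, 64 hypomethylated and 2 hypermethylated, against 0.445% of 643889 CpGs, with 0.361% hypomethylated. Since UNT levels chose the CpGs, nothing is read from these shares or from the direction. The 2 comparisons share the UNT striata, and 53 CpGs were called in both, 91.4% of the first and 80.3% of the second list.

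Of the called CpGs, 54 of 58 and 53 of 66 lay 50 bases past a cytosine. When cytosines 46 to 50 bases past another were left out, 1 of 5392 chosen CpGs was left between L-DOPA and UNT, where 0.0776% of all tested CpGs were called. It is the CpG at 8793506 of chromosome 13, which was lower in L-DOPA rats 1 and 3 and is described with the comparison of both treatments below. Between L-DOPA + R and UNT, 7 of 5391 were left, all hypomethylated, which was 0.1298% of the chosen CpGs and near the background of 0.132%, where 593 of 781 calls were hypomethylated too. The counts of chosen CpGs called against UNT thus changed from 58 to 1 and from 66 to 7 with this setting, in which fewer CpGs were tested.

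With all cytosines, the CpGs that were named for the smallest p against UNT, each with 1 sign in the 9 pairs of a treated with a UNT rat, were all at 50 bases. At 193572261 of chromosome 2, the most deeply covered with 209 to 547 reads, methylation ran from 90.0% over 94.4% to 95.2% in UNT, from 47.7% over 49.5% to 54.0% with L-DOPA and from 42.3% over 43.7% to 49.4% with L-DOPA + R. At 73140115 of chromosome 8, it was 95.8% to 100% in UNT, 41.6% to 51.5% with L-DOPA and 44.2% to 57.6% with L-DOPA + R. At 57883786 of chromosome 3, just above the limit of the rule, it was 73.8% to 87.9%, 25.4% to 31.1% and 26% to 34.3%. No striatum of UNT overlapped with a treated one at these sites. Without the cytosines at 46 to 50 bases, however, the first of them differed from UNT by 1.2 points in L-DOPA (q = 0.935) and 0.317 in L-DOPA + R (q = 1), and the third by 8.05 (q = 0.835) and -7.73 points (q = 0.761), so the calls were lost, while the second could not be tested. The others of this kind were at 9212956 of chromosome 6 (85.3%, 44.3% and 48.4% in UNT, L-DOPA and L-DOPA + R), 68954143 of chromosome 16 (99.8%, 63.5% and 58.6%) and 26471274 of chromosome 2 (98.1%, 29.6% and 32.4%). At 68954143, leaving out the strand at 46 to 50 bases brought the difference between L-DOPA and UNT from -36.4 to -1.37 points, at 26471274 that between L-DOPA + R and UNT was brought from -66.2 to 0.293 points (q = 1), and 9212956 could not be tested.

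The supplementary annotation of the study placed 8 of the called CpGs at 50 bases in genes. Tcp11, known for its expression in testis, had its exonic CpG at 7649305 of chromosome 20 at 96.1% over 98.0% to 100% in UNT, 52.1% over 57.6% to 67.4% with L-DOPA and 58.8% over 63.8% to 74.1% with L-DOPA + R. Trim52, of the family of tripartite motif proteins, had its CpG at 90364761 of chromosome 15, in promoter and exon, at 91.4% to 100%, 75% to 84.7% and 75% to 94.7%. Both were called against UNT in both treatments, and in Trim52 the highest L-DOPA + R striatum overlapped with UNT. Without the cytosines at 46 to 50 bases, the differences from UNT were -0.974 and 1.33 points in Tcp11 and 2.08 and 2.65 points in Trim52, the first for L-DOPA and the second for L-DOPA + R.

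The exonic CpG of Pard6b, a protein of cell polarity, had 96.8 ± 3.38% in UNT, 61.7 ± 6.33% with L-DOPA and 63.5 ± 4.97% with L-DOPA + R (SD, n = 3 rats). That of Slc25a29, a mitochondrial carrier of basic amino acids, at 132737917 of chromosome 6, had 96.7 ± 1.42%, 75.4 ± 3.96% and 71.6 ± 2.18%. Mtm1, which encodes the phosphoinositide phosphatase myotubularin, had the largest fall among the chosen CpGs, with an exonic CpG at 18833195 of chromosome 6 at 97.5 ± 2.82%, 10.1 ± 8.49% and 17.9 ± 6.99%. Intronic CpGs were called in Themis2 (150981893 of chromosome 5), Mertk, the phagocytosis receptor (121284042 of chromosome 3), and Prep, a peptidase that cleaves after proline (50228377 of chromosome 20). Themis2 had 95.1%, 70.4% and 72.0%, Mertk 80.6%, 15.5% and 26.4%, and Prep 98.7%, 52.4% and 46.5%. At all 8 CpGs, the mean of both treated groups lay below that of UNT. Without the cytosines at 46 to 50 bases, the difference between L-DOPA and UNT was 0.380 points in Pard6b (q = 1), 0.576 in Slc25a29 (q = 1) and -2.50 in Themis2 (q = 0.922), so that these calls were lost, and Mtm1, Mertk and Prep could not be tested.

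Outside this distance, intronic CpGs of 3 genes were called between L-DOPA + R and UNT. Grm4 encodes the metabotropic glutamate receptor mGlu4, which acts at striatal synapses. Its CpG at 7056781 of chromosome 20 had 88.3% over 90.8% to 94.9% in UNT, 73.5% over 85.4% to 94.9% with L-DOPA and 73.7% over 77.4% to 83.6% with L-DOPA + R, with a difference of -12.8 points from UNT (q = 0.00187). L-DOPA + R lay below every UNT striatum, and L-DOPA overlapped with both. Tenm2, a teneurin of synaptic adhesion, had 78.6% over 84.2% to 91.3%, 63.3% over 85.7% to 90.9% and 53.3% over 60.1% to 80% at 21537480 of chromosome 10. Sez6l, a membrane protein of neurons, had 70.8% over 84.3% to 90.7%, 61.5% over 82.3% to 92.9% and 46.7% over 66.2% to 73.3% at 50145444 of chromosome 12. The difference from UNT was -20.7 points in Tenm2 (q = 0.00921) and -20.6 points in Sez6l (q = 0.00626). These differences were the same in the alternatives, but the calls were lost with the rat as the unit (q = 0.0241 and 0.0247) and when cytosines at 46 to 50 bases were left out of the whole table (q = 0.0205 and 0.0153), and the reads behind a value in UNT and L-DOPA + R went down to 12 in Tenm2 and 15 in Sez6l.

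Without the cytosines at 46 to 50 bases, 5 CpGs outside the genes of the annotation were named for the smallest p between L-DOPA + R and UNT. At 114379385 of chromosome 9, with 70 to 207 reads, methylation was 89.4% over 91.8% to 95.5% in UNT, 83.2% over 89.9% to 92.1% with L-DOPA and 74.3% over 80% to 84.0% with L-DOPA + R. At 7412324 of chromosome 17 it was 93.5% to 98.3%, 88.2% to 97.0% and 76.9% to 91.4%. The CpG at 19225867 of chromosome 20 was called in this setting (q = 0.00308) and not with all cytosines (q = 0.0193), and had 94.3 ± 0.600%, 91.8 ± 0.570% and 83.0 ± 6.37% (SD, n = 3 rats). The other two were at 14633932 of chromosome 18, described with the next comparison, and at 148208987 of chromosome 5. There, L-DOPA + R had 41.2% to 60.9% against 89.5% to 100% in UNT, while in L-DOPA both striata of rat 3 were at 0 and the other 4 striata at 70.6% to 90.0%. The DNA sequence of the rats at this CpG was not analysed here.

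Between L-DOPA + R and L-DOPA, a comparison independent of the rule, 3 of the 5845 chosen CpGs (0.0513%) were DMS, 1 hypomethylated and 2 hypermethylated in L-DOPA + R. Of all 568416 CpGs tested, 0.0477% were DMS, so the share among the chosen CpGs was near the background. Without cytosines at 46 to 50 bases, the same 3 CpGs were called, against 0.0437% of all. None of the 3 lay at these distances. An unadjusted p under 0.05 was found for 460 chosen CpGs (7.87%), 259 of them lower in L-DOPA + R, and for 7.09% of all CpGs. With an F test, 0 of the chosen CpGs and 2 of all CpGs were called.

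The CpG with the strongest call, at 77422220 of chromosome 1, split by rats. The control striata of the 3 UNT rats had 98.8%, 96.7% and 50.6%, and the lesioned 99.2%, 98.4% and 49.2%. In L-DOPA, the control striata had 52.3%, 60.9% and 47.3% and the lesioned 40.5%, 43.8% and 51.2%. In L-DOPA + R, the control striata had 96.0%, 100% and 100% and the lesioned 95.6%, 95.5% and 96.3%. The level was thus between 40.5% and 60.9% in both striata of UNT rat 3 and of each L-DOPA rat, and over 95% in both striata of the 5 other rats, and the difference between L-DOPA + R and L-DOPA was 48.3 points (q = 2.99e-31). The 7 other CpGs of this stretch, all chosen, had a mean of 96.3% in UNT, 95.9% with L-DOPA and 95.8% with L-DOPA + R, although the nearest was 2 bp away. The DNA sequence of the rats at this CpG was not analysed here, and with 3 rats a group, a difference that single rats carry and one of the treatments cannot be told apart at a CpG that splits in this way.

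A similar split was found at 8793506 of chromosome 13. Here L-DOPA rats 1 and 3 had 42.5% and 44.0% in the control and 48.4% and 48.9% in the lesioned striatum, and rat 2 had 91.9% and 94.5%. All 6 UNT striata (93.4% to 97.0%) and all 6 L-DOPA + R striata (93.4% to 98.6%) were high. Between L-DOPA and UNT, the CpG was called with -42.7 points (q = 6.08e-10), a difference that L-DOPA rats 1 and 3 carry. The difference between L-DOPA + R and L-DOPA was 43.9 points (q = 2.41e-04), and with the rat as the unit q was 0.177, with the same limit on its reading as on chromosome 1. The 6 other CpGs of the stretch differed by at most 0.859 points between the groups.

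The CpG at 14633932 of chromosome 18 was lower in all L-DOPA + R striata. It had 75% over 88.5% to 92.7% in UNT, 85.2% over 87.7% to 94.3% with L-DOPA and 40% over 62.5% to 74.1% with L-DOPA + R, with 10 to 59 reads. L-DOPA + R and L-DOPA did not overlap, and the difference was -25.6 points (q = 0.00353). The 5 other CpGs of its stretch, all chosen, differed by -6.46 to 0.557 points. The call was lost without L-DOPA + R rat 1 (q = 0.0731), L-DOPA + R rat 2 (q = 0.0908) or L-DOPA rat 1 (q = 0.10). That on chromosome 13 was lost without any 1 of the L-DOPA + R rats (q = 0.0262, 0.0940 and 0.0215) and without L-DOPA rat 1 (q = 0.0219) or 3 (q = 0.0273), while that on chromosome 1 stayed at q = 9.86e-22 or less without any rat.

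**Figure D5:**
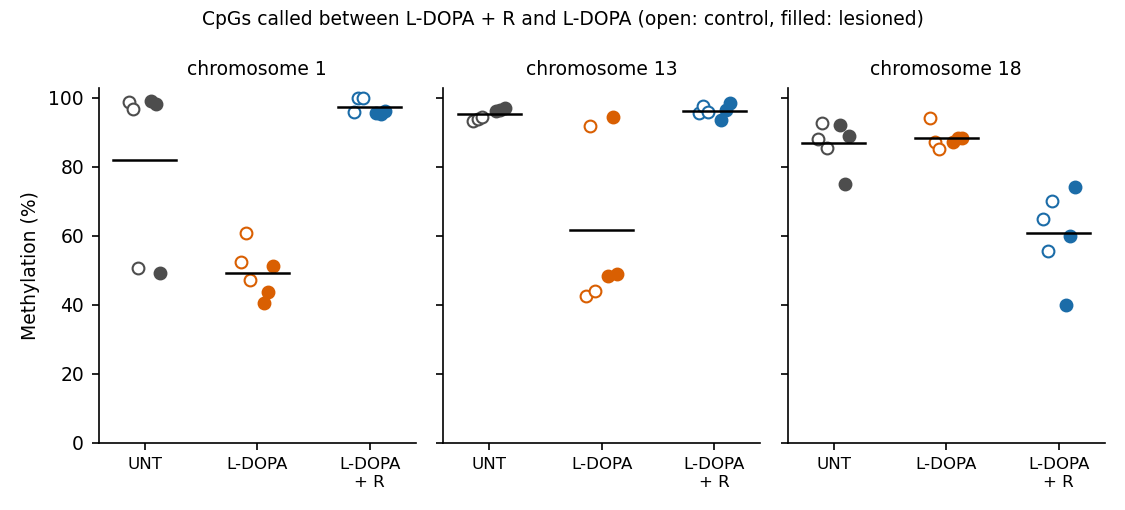
Methylation (y axis, %) of the 3 dense, highly methylated CpGs called between L-DOPA + R and L-DOPA, in each striatum by treatment (x axis), with lines at the group means. On chromosomes 1 and 13 the striata lie between 40.5% and 60.9% or over 90%, both striata of a rat together, and on chromosome 18 the L-DOPA + R striata spread from 40% to 74.1%.

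Steps of this kind were rare among the chosen CpGs. Leaving out the 178 CpGs at 50 bases, 43 of 5667 were under 60% in at least 1 treated rat, 31 of them in 1 rat, 8 in 2, 3 in 3 and 1 in 4. These made 60 pairs of a rat and a CpG. The median of the mean of both striata in these pairs was 54.2%, and it was under 10% in 1 pair. The pairs were chosen by this mean, so that low values in both striata follow in part from the choice. The striata of a pair differed by a median of 12.7 points, against 3.93 points over all chosen CpGs.

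Between lesioned and control striata, 1 of the chosen CpGs was called in UNT, 0 with L-DOPA and 0 with L-DOPA + R. The background was 0.00193% of 724400 CpGs in UNT, 0.00101% of 395600 in L-DOPA and 0.00176% of 397652 in L-DOPA + R. The CpG called in UNT, at 134707216 of chromosome 7, lies 46 to 49 bases past a cytosine. It had 89.6%, 84.8% and 89.2% in the control and 99.0%, 100% and 98.6% in the lesioned striata of UNT (11.1 points, q = 0.00944). The call was lost without any 1 of the 3 UNT rats, with the F test and without the cytosines at 46 to 50 bases. In treated rats the order was not kept, since the L-DOPA control striata had 98.5%, 97.8% and 97.9% and the lesioned 91.7%, 94.6% and 95%. An unadjusted p under 0.05 was found for 383 chosen CpGs (6.55%) with L-DOPA and 499 (8.54%) with L-DOPA + R, against 5.40% and 6.29% of all CpGs tested, and the F test called 0 in each group. With the replicate number as a block, which pairs the striata of equal number, L-DOPA stayed at 0, and in L-DOPA + R 1 chosen CpG was called. Over all CpGs, this fit called 23 with L-DOPA and 32 with L-DOPA + R, against 4 and 7 without the block. The chosen CpG lies at 32142346 of chromosome 11, 50 bases past a cytosine, with 100%, 95% and 100% in the control and 53.6%, 0% and 41.2% in the lesioned striata.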

How the data were processed

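RRBS of both striata of 9 rats was analysed. Per the labels and the methods, the authors trimmed the reads with Trim Galore 0.4.0, mapped them to rn6 with Bismark and listed each cytosine of a CpG. The coverage deposited by the authors is a count of reads per cytosine, without normalization. The percentages of methylated and unmethylated reads were deposited by the authors beside it as percent, and methylated reads were rebuilt from both. Calls per striatum ran from 18471279 to 49113957, and the median of the coverage over cytosines used was 15 to 23 reads, so that intervals of single values are wide; coverage covers counting error only.

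A minimum of 10 reads per cytosine was set, and both cytosines of a CpG were merged. The level of a group is the mean of its striata or rats, and a difference of a DMS is taken from summed reads. Treatments were compared with a logistic model with overdispersion and a chi-square test, 6 striata against 6, at CpGs present in at least 4 of 6, and sides with 3 against 3. The Benjamini-Hochberg q over all tested CpGs was called under 0.01. Both striata of a rat entered as separate samples, so that p-values between treatments can be too small; the fit with the rat as the unit is an alternative. Means over the CpGs were tested by exact two-sided permutation over rats. Stretches were chained with gaps of at most 100 bp.

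The CpGs, their thresholds and the sites to be named were chosen with earlier results of these data known. Named were the 5 stretches with most chosen CpGs, in each treatment comparison the 5 called CpGs with the smallest p and one direction in all 9 comparisons of rats, the same without cytosines 46 to 50 bases past another, the called CpGs with a gene in the study's annotation, and those called between sides. Gene lists, CpG islands and repeats need an annotation of rn6 and were not analysed here. Columns of the authors' own comparisons were used for gene names alone. The methods give 3 rats a group with both striata. That striata of equal replicate number are from 1 rat was inferred from the shared numbers in the labels and is not stated there, and every value per rat rests on it. Deviations from the group means correlated with a mean r of 0.0644 (0.0332 to 0.111) across CpGs between striata of equal number, above 0.1 in 2 of the 9 pairs. Python 3.11.15, numpy 2.4.6, pandas 2.3.3, scipy 1.17.1 and numba 0.67.0 were used. The chi-square, F and block fits were tried on simulated reads without overdispersion and without a link between the striata of a rat. The permutation tests over rats were not part of this.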

Additional observations from a re-analysis of the deposited data

How the results depend on the processing

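With a minimum of 20 reads, 791 CpGs met the rule in place of 5845. Leaving out cytosines 50 bases past another brought the calls of chosen CpGs against UNT from 58 to 3 (L-DOPA) and from 66 to 8 (L-DOPA + R). Over all CpGs, the calls went from 2300 to 1028 and from 2867 to 1447. Leaving out 46 to 50 bases left 1 and 7 calls of chosen CpGs and 468 and 781 of all, where fewer CpGs were tested. The F test called 30 and 29 chosen CpGs against UNT, beside 407 and 372 of all CpGs. It called 0 chosen CpGs in the comparison of both treatments, beside 2 of all, and 0 of either between the sides of UNT. Without overdispersion, 111 chosen CpGs were called for L-DOPA + R against UNT, 11 for the comparison of both treatments, and 1 between the sides of L-DOPA + R. Over all CpGs, these counts were 7854, 1621 and 60. The call between the sides of UNT was lost (0) without the cytosines at 46 to 50 bases, where 3 of all CpGs were called. With the replicate block, 1 chosen CpG was called between the sides of L-DOPA + R, and the block moved no other count of chosen CpGs by over 1.5 times. Over all CpGs, however, it raised the calls between both treatments from 271 to 530. Between the sides, they went from 14 to 29 in UNT, from 4 to 23 in L-DOPA and from 7 to 32 in L-DOPA + R. The cause of these changes was not tested.

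Leaving out 1 rat in turn gave 1 to 3 calls of chosen CpGs for the comparison of both treatments (1 without L-DOPA + R rat 2). It gave 0 between the sides of UNT and 0 to 2 between the sides of L-DOPA + R (2 without rat 2). Over all CpGs, these calls ran from 215 to 491, from 9 to 38 and from 8 to 32 in the same order. The mean difference between the sides in treated rats ran from -0.00343 (without L-DOPA + R rat 1) to 0.190 points. That of dense minus sparse CpGs ran from 1.96 to 2.07 points and that of neighbouring CpGs from -0.904 to -0.815 points, with 5 rats too few for an exact p under 0.05. The dense minus sparse share under 60% was 0.432 percentage points with 20 reads and 0.224 with each stretch weighted once, both with an exact permutation p of 0.031 over the 6 rats. It turned to -0.0468 without the cytosines at 50 bases and to -0.0473 without those at 46 to 50.

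Without the cytosines at 46 to 50 bases, the difference from UNT turned positive at named sites. It was 8.05 points in L-DOPA at 57883786 of chromosome 3, 1.2 (L-DOPA) and 0.317 (L-DOPA + R) at 193572261 of chromosome 2, and 0.293 in L-DOPA + R at 26471274 of chromosome 2. It was 2.08 and 2.65 in Trim52, 1.33 in L-DOPA + R in Tcp11, 0.380 in Pard6b and 0.576 in Slc25a29, the last 2 in L-DOPA. The depth of treated striata limits the call of differences of a few points, and 3 rats a group limit any exact test between treatments to 0.1.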
